A study of Saccharomyces cerevisiae with 5 samples.

Results

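The 36 genes described here encode the enzymes of the tricarboxylic acid (TCA) cycle, the glyoxylate cycle and gluconeogenesis in budding yeast, the enzymes that feed these pathways with acetyl-CoA and oxaloacetate, and a pair of transcription activators of gluconeogenic genes. They were chosen by name among the gene spots of the array, with no threshold on measured values, and made up 36 of 6256 genes, on 62 of 10263 gene spots. Each of 5 two-colour oligonucleotide arrays compared 1 culture of a chs2Δ strain (YFR23, chs2 replaced by a kanamycin resistance module, MAT α) with 1 culture of its wild type parent (MGD353-46D, MAT α). CHS2 encodes chitin synthase II, which lays down the primary septum at cell division. Both strains carried trp1, ura3, leu2 and his3 markers and were grown overnight at 26 °C in complete synthetic medium with 2% glucose. The chs2Δ strain was 1 deletion line, and how many clones it was taken from is unknown here. The titles of the arrays read YJR6, which is the name of a myo1Δ strain, against YFR23 in the source fields and the methods.

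CHS2 itself was 0.569 times its wild type level in the chs2Δ cultures, with log2 ratios of -0.35, -0.56, -0.95, -1.63 and -0.58 on replicates 1 to 5 (SE 0.17, adjusted p = 0.0025 from limma). It was below the wild type on 5 of 5 arrays, but its signal was above background in chs2Δ on 4 of them, and the position of the probe relative to the deletion is unknown here. MYO1 was 0.806 times its wild type level (SE 0.06 on the log2 scale, adjusted p = 0.0013). All 4 marker genes of MAT α cells were lower in chs2Δ, although both strains are described as MAT α, with log2 ratios of -2.11 for MF(ALPHA)1, -2.53 for MF(ALPHA)2, -2.53 for SAG1 and -2.43 for STE3. MF(ALPHA)2 was above background on 3 arrays in chs2Δ, so the size of its fall is uncertain. Of 6 genes specific to MAT a cells, STE6 was higher (log2 ratio 0.91). The others were not called, with log2 ratios of -0.05 to 0.16. Of these, MFA1, STE2 and BAR1 were above background on 0 arrays in chs2Δ, MFA2 on 2 and AGA2 on 3, so little is read from their ratios. The part of these differences in the results below was not tested. The chs2Δ channel was the dimmer one, with median spot signals of 77.5 to 197 intensity units in chs2Δ and 213 to 431 in the wild type, and 73.9% to 83.2% of chs2Δ spots against 89.1% to 94.3% of wild type spots were above background. Log2 ratios of all genes measured on all 5 arrays correlated between arrays with r of 0.867 to 0.978.

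The TCA cycle oxidizes acetyl-CoA in the mitochondrion and supplies precursors such as 2-oxoglutarate. The glyoxylate cycle bypasses its decarboxylation steps, so that cells growing on ethanol or acetate can build C4 acids, and gluconeogenesis turns these acids into sugar phosphates. In budding yeast, glucose represses many of the genes concerned, through the Snf1 kinase and the activators Cat8, Sip4 and Adr1, while the Hap2/3/4/5 complex activates respiratory genes. Several steps are catalysed by isoenzymes in the mitochondrion, the cytosol and the peroxisome, each from its own gene.

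Most genes of this group were up-regulated in chs2Δ. Values are log2 ratios of chs2Δ over wild type, fitted with limma over 5 arrays, and a gene was called at a Benjamini-Hochberg adjusted p below 0.05 over 6246 genes. Of the 36 genes, 22 were higher in chs2Δ, 5 were lower and 9 were not called, so 75% were called, against 71.6% of all genes. The share of the group that was higher was 61.1%, against 35.7% of all genes, and the share that was lower was 13.9%, against 36%. The median log2 ratio of the 36 genes was 0.59, and that of all genes -0.01. At least a 2-fold rise was found for 9 of them, or 25%, against 10.2% of all genes. The same sign on all 5 arrays was found for 26 of 36, against 68.9% of all genes. MAE1, measured on 4 arrays, cannot count among these 26. The counts depended on the scaling of the arrays. The alternative scaling only centred each array on its median, in place of a loess curve fitted along signal intensity. With it, 19 of the 36 were higher and 12 lower. Of all genes, 41.5% were then higher and 83.1% were called in either direction. Lower calls were thus more frequent among all genes too, and the lower share of the 36 stayed below that of all genes.

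**Figure D1:**
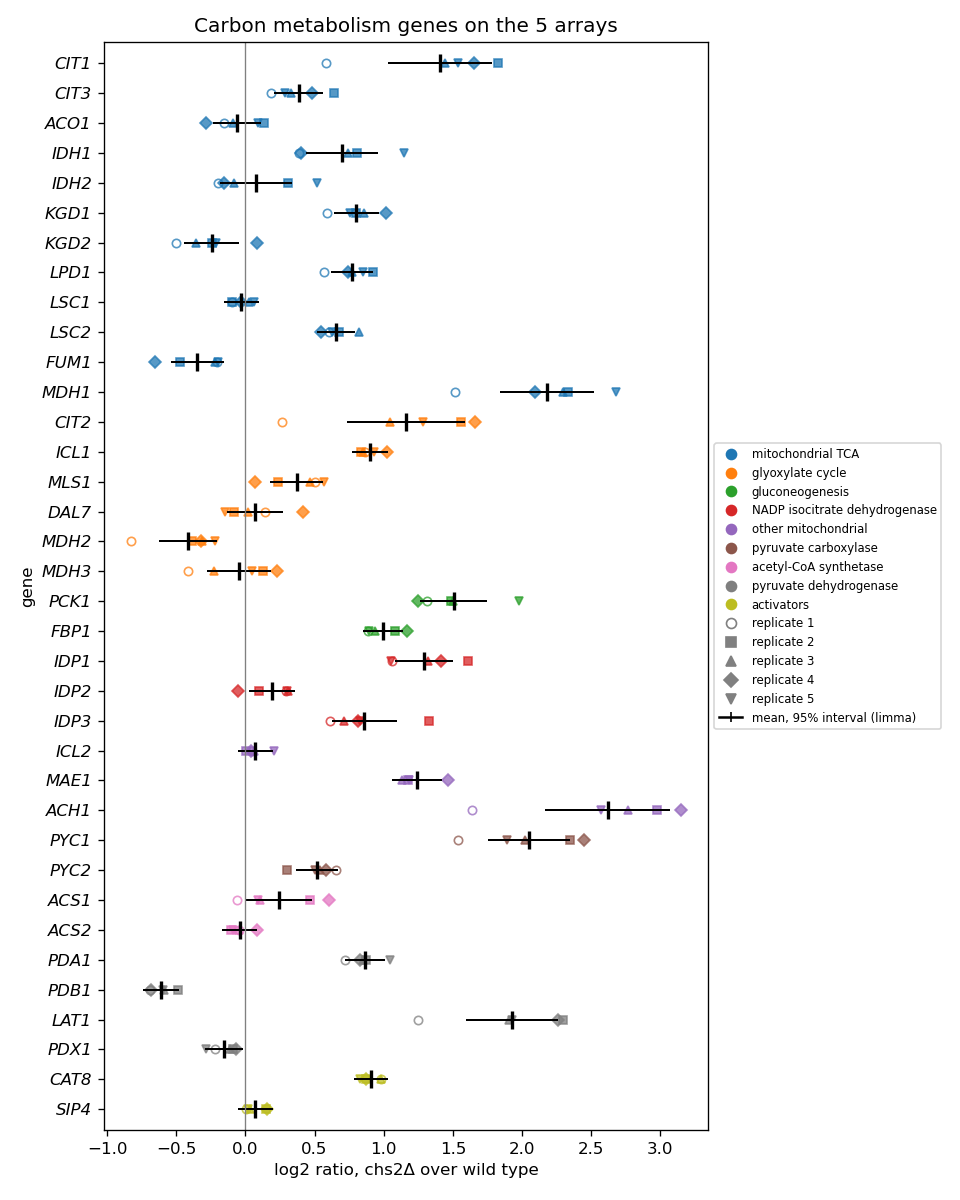
Log2 ratios of chs2Δ over wild type (horizontal axis) of the 36 genes (vertical axis), with 1 symbol per replicate array, the mean as a black tick and its 95% interval from limma as a line. ACH1, MDH1, PYC1 and LAT1 lie farthest to the right, replicate 1 (open circles) is the lowest array in all 4, and PDB1 lies farthest to the left.

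The genes of the mitochondrial TCA cycle split into a group that rose, led by its last and first enzymes, and a group that did not. Of 12 genes, 7 were higher, 2 lower and 3 not called, so 75% were called, against 71.6% of all genes. Their median log2 ratio was 0.52. MDH1 (YKL085W), the mitochondrial malate dehydrogenase that closes the cycle, had levels of 4268, 6675, 6221, 5241 and 5700 intensity units in chs2Δ on replicates 1 to 5. Its wild type levels were 1491, 1328, 1268, 1231 and 888. The lowest chs2Δ culture was thus above the highest wild type culture, and the ratio was 4.54-fold (log2 2.18, SE 0.14, adjusted p = 3.65e-06).

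CIT1 (YNR001C), the mitochondrial citrate synthase that opens the cycle, had levels of 1321, 2900, 2251, 2950 and 2213 in chs2Δ and 881, 817, 828, 939 and 764 in the wild type. The groups did not overlap, and replicate 1 had the smallest difference. The ratio was 2.65-fold (log2 1.41, SE 0.16, adjusted p = 7.94e-05). CIT3, a minor mitochondrial citrate and methylcitrate synthase, was 1.30-fold higher (log2 0.38, adjusted p = 0.0016). Of the genes for the oxidative steps, KGD1, the E1 subunit of 2-oxoglutarate dehydrogenase, was 1.74-fold higher (adjusted p = 1.34e-05). LPD1, the dihydrolipoamide dehydrogenase that is shared by the 2-oxoacid dehydrogenase complexes, was 1.71-fold higher (log2 0.77), but -0.06 and not called with median centring. The same held for IDH1, a subunit of the NAD-dependent isocitrate dehydrogenase (1.62-fold, log2 0.70 with loess and -0.10 with median centring). It held also for LSC2, the beta subunit of succinyl-CoA ligase (1.57-fold, log2 0.65 and -0.08).

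Fumarase and the E2 subunit of 2-oxoglutarate dehydrogenase went the other way. FUM1, fumarase, was lower on 5 of 5 arrays, with log2 ratios of -0.20, -0.47, -0.22, -0.65 and -0.20 (0.785 times the wild type level, adjusted p = 0.00431). KGD2, the E2 subunit, was lower on 4 of 5 arrays, at 0.844 times the wild type level (adjusted p = 0.0273). Its call was lost without background correction and without replicate 1, 2, 3 or 5 (adjusted p of 0.0592 to 0.0927). ACO1, the aconitase of the cycle, had a log2 ratio of -0.06 (95% interval -0.23 to 0.10), IDH2, the partner of IDH1, 0.08 (-0.18 to 0.33) and LSC1, the alpha subunit of succinyl-CoA ligase, -0.03 (-0.15 to 0.09). None of these 3 was called with loess, and with median centring all 3 were called lower (ACO1 -0.73, IDH2 -0.64, LSC1 -0.57).

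**Figure D2:**
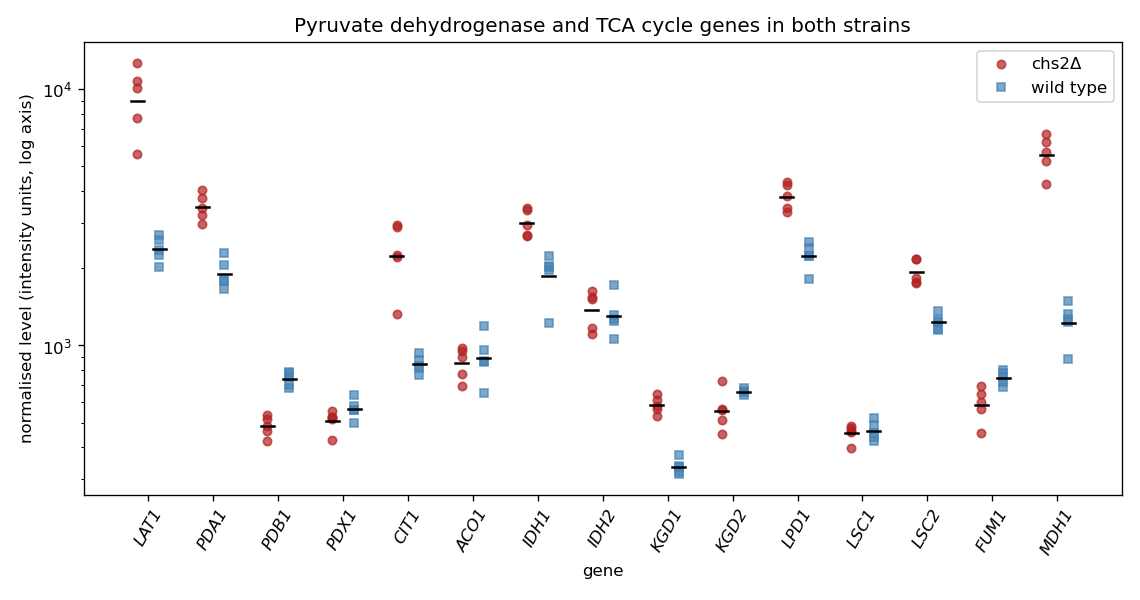
Normalised levels (vertical axis, intensity units, log scale) of the pyruvate dehydrogenase genes and of TCA cycle genes (horizontal axis) in the 5 chs2Δ cultures (red circles, left) and the 5 wild type cultures (blue squares, right), with the geometric mean as a bar. The strains do not overlap for LAT1, PDA1, CIT1, IDH1, KGD1, LPD1, LSC2 and MDH1, which were higher in chs2Δ. PDB1, which was lower, does not overlap either. They overlap for ACO1, IDH2 and LSC1, and also for FUM1, KGD2 and PDX1, which were called lower. How many of all genes lack overlap was not counted, and 68.9% of all genes kept 1 sign on all 5 arrays. Levels of different genes come from different probes and are not comparable with each other.

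The genes of the glyoxylate cycle moved less uniformly, while both gluconeogenic genes rose. Of 6 glyoxylate cycle genes, 3 were higher, 1 was lower and 2 were not called, so 66.7% were called, against 71.6% of all genes. PCK1 (YKR097W), the phosphoenolpyruvate carboxykinase that commits oxaloacetate to gluconeogenesis, had levels of 829, 766, 798, 558 and 772 in chs2Δ and 334, 273, 281, 235 and 196 in the wild type. All chs2Δ cultures were above all wild type cultures, and the ratio was 2.84-fold (log2 1.51, SE 0.10, adjusted p = 4.23e-06). FBP1 (YLR377C), fructose-1,6-bisphosphatase, had levels of 184, 235, 214, 248 and 224 in chs2Δ and 99.3, 111, 111, 110 and 120 in the wild type. It was 1.99-fold higher (log2 0.99, SE 0.06, adjusted p = 2.60e-06), without overlap, although its 2 spots differed by 0.42 on the log2 scale.

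ICL1 (YER065C), the isocitrate lyase at the entry of the glyoxylate cycle, was the most even of the glyoxylate cycle genes that rose. Its levels were 485, 467, 495, 501 and 497 in chs2Δ and 267, 262, 274, 246 and 260 in the wild type, which do not overlap. The ratio for ICL1 was 1.87-fold (log2 0.90, SE 0.05, adjusted p = 2.06e-06). CIT2 (YCR005C), the peroxisomal citrate synthase, was far more variable, with levels of 1348, 2677, 2081, 3432 and 1752 in chs2Δ and 1123, 909, 1010, 1086 and 720 in the wild type. Its ratio was 2.24-fold (log2 1.16, SE 0.18, adjusted p = 5.45e-04) with loess and 1.35-fold, not called (adjusted p = 0.0561), with median centring. MLS1, malate synthase, had a log2 ratio of 0.37 (adjusted p = 0.00337), but its signal was above background on only 1 array in chs2Δ and 1 in the wild type, and its call was lost when all flagged spots were left out (adjusted p = 0.208).

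MDH2, the cytosolic malate dehydrogenase that supplies gluconeogenesis, was the only one of these 8 genes called lower. Its log2 ratios were -0.83, -0.39, -0.31, -0.32 and -0.22, with the lowest value on replicate 1 (0.751 times the wild type level, SE 0.09, adjusted p = 0.00307). DAL7, a second malate synthase of allantoin degradation, had a log2 ratio of 0.07 (95% interval -0.12 to 0.26) and was called lower, at -0.31, with median centring. MDH3, the peroxisomal malate dehydrogenase, had a log2 ratio of -0.05 (-0.27 to 0.17), and with median centring -0.69, called lower.

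The mitochondrial TCA genes as a class differed from the glyoxylate and gluconeogenic genes by less than the spread between arrays. Per array, the median log2 ratio of the 12 TCA genes was 0.29, 0.66, 0.53, 0.44 and 0.57 on replicates 1 to 5. That of the 8 glyoxylate and gluconeogenic genes was 0.38, 0.54, 0.66, 0.72 and 0.73. The difference, TCA minus glyoxylate and gluconeogenic, was -0.10, 0.12, -0.12, -0.28 and -0.16, a mean of -0.11 ± 0.15 (SD, n = 5), and it did not keep its sign. With median centring it was below 0 on 5 of 5 arrays, between -1.03 and -0.40, with medians of -0.16 for the TCA genes and 0.45 for the other class (means over the arrays). Without background correction it was 0.04. The relation of both classes therefore depended on the processing. With loess the TCA genes spanned log2 ratios of -0.35 to 2.18, and the glyoxylate and gluconeogenic genes -0.41 to 1.51.

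Some isoenzymes had clearly different ratios. A difference of 2 single genes can be wider than one of class medians, so the sizes of both are not compared. For 12 pairs of isoforms or related genes, the difference of the log2 ratios was taken within each array and tested with an exact two-sided sign-flip permutation test over the 5 arrays. The smallest p that 5 arrays allow is 0.0625. It was reached by 9 of 12 pairs, with an adjusted p of 0.0833 over the 12 pairs, so none could pass a threshold of 0.05. The widest gap was that of the malate dehydrogenases. The cytosolic MDH2 minus the mitochondrial MDH1 was -2.34, -2.72, -2.61, -2.41 and -2.90 (mean -2.60 ± 0.23, SD), and the peroxisomal MDH3 minus MDH1 had a mean of -2.23 ± 0.34. MDH1 thus rose while its cytosolic counterpart fell, and both gaps kept their sign with median centring (-2.33 and -2.06). MDH3 minus MDH2 was smaller, 0.37 ± 0.19.

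For the citrate synthases, the peroxisomal CIT2 minus the mitochondrial CIT1 was -0.32, -0.27, -0.40, 0.01 and -0.25, a mean of -0.25 ± 0.15 with 4 of 5 arrays negative (exact permutation p = 0.125, adjusted 0.136). With median centring it was -0.25 and negative on 5 of 5 arrays (exact permutation p = 0.0625). CIT3 minus CIT1 was -1.02 ± 0.35 and negative on 5 of 5 arrays, but 0.24 with median centring. Among the pyruvate carboxylases, PYC1 minus PYC2 was 0.88, 2.04, 1.49, 1.86 and 1.39, a mean of 1.53 ± 0.45, positive on 5 of 5 arrays and 1.48 with median centring. ICL1 minus ICL2, the glyoxylate cycle enzyme against the mitochondrial 2-methylisocitrate lyase, was 0.83 ± 0.10 and positive on 5 of 5 arrays, and 0.27 with median centring. For the NADP-dependent isocitrate dehydrogenases, the cytosolic IDP2 minus the mitochondrial IDP1 was -1.10 ± 0.37 and the peroxisomal IDP3 minus IDP1 -0.43 ± 0.18, each negative on 5 of 5 arrays, yet 0.06 and 0.98 with median centring. DAL7 minus MLS1 (-0.30 ± 0.39) and ACS1 minus ACS2 (0.29 ± 0.25) did not keep 1 sign (exact permutation p = 0.1875 and 0.125).

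**Figure D3:**
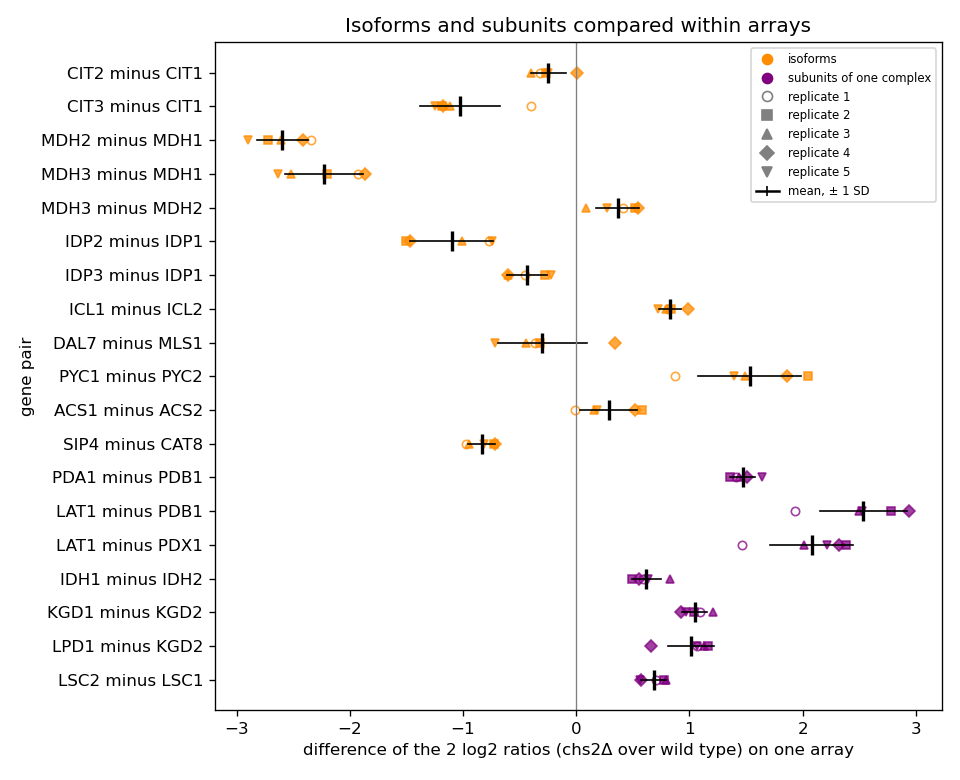
Difference of the log2 ratios of 2 genes on the same array (horizontal axis, log2 units) for 12 isoform pairs (orange) and 7 pairs of subunits (purple), with 1 symbol per replicate array, the mean as a black tick and ± 1 SD as a line. MDH2 minus MDH1 lies at -2.60 and LAT1 minus PDB1 at 2.54, and the subunit pairs, picked for their gaps, are each drawn as the higher gene minus the lower one (SIP4 was not above background, so its pair is not read).

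Some subunits of the same complex moved in opposite directions. The pyruvate dehydrogenase complex makes acetyl-CoA from pyruvate in the mitochondrion, with PDA1 and PDB1 encoding the alpha and beta subunits of its E1 component, LAT1 the E2 acetyltransferase and PDX1 the E3-binding protein. LAT1 (YNL071W) had levels of 5585, 12653, 10084, 10788 and 7720 in chs2Δ and 2357, 2582, 2697, 2257 and 2028 in the wild type. The lowest chs2Δ level was above the highest wild type level, and LAT1 was 3.80-fold higher (log2 1.93, SE 0.14, adjusted p = 6.50e-06). PDA1 (YER178W) had levels of 2973, 3751, 3224, 4056 and 3423 in chs2Δ and 1805, 2052, 1789, 2285 and 1659 in the wild type. Again without overlap, it was 1.82-fold higher (log2 0.86, adjusted p = 4.58e-06), but with median centring its log2 ratio was 0.05 and not called.

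PDB1 (YBR221C) had levels of 424, 536, 465, 485 and 518 in chs2Δ and 684, 752, 701, 778 and 785 in the wild type. All chs2Δ cultures lay below all wild type cultures, and PDB1 was 0.655 times its wild type level (log2 -0.61, SE 0.05, adjusted p = 1.66e-05). PDX1 had a log2 ratio of -0.15 (adjusted p = 0.0334), negative on 5 of 5 arrays. Its call was lost without replicate 1, 3 or 5, without background correction and with the slide as the replicate (adjusted p of 0.0541 to 0.132). Both E1 subunits form 1 enzyme, and the difference PDA1 minus PDB1 was 1.41, 1.36, 1.44, 1.51 and 1.64 on replicates 1 to 5 (mean 1.47 ± 0.11, SD). It was positive on every array and stayed at 1.28 with median centring. LAT1 minus PDB1 was 2.54 ± 0.38.

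Gaps between subunits were also measured in 3 TCA cycle enzymes. Only in 2-oxoglutarate dehydrogenase were subunits called in opposite directions, while IDH2 and LSC1 were not called with loess. These subunit pairs were taken up after their values had been seen and are given as a description, with no test. IDH1 minus IDH2 was 0.59, 0.50, 0.83, 0.56 and 0.63, a mean of 0.62 ± 0.13. KGD1 minus KGD2 was 1.05 ± 0.11 and LPD1 minus KGD2 1.02 ± 0.20. LSC2 minus LSC1 was 0.68 ± 0.11. These pairs were picked for their gaps, each as the higher gene minus the lower one, so their sign is set by the choice. Over all 15 pairs of subunits within the 4 complexes, LPD1 counted in both complexes it serves, the mean differences had sizes of 0.03 to 2.54 and 13 kept 1 sign on all 5 arrays. The other 2 were PDA1 minus LPD1 (0.09 ± 0.09) and KGD1 minus LPD1 (0.03 ± 0.16). How many pairs of unrelated genes keep 1 sign was not counted, so the count of 13 is not read as a trait of these complexes. The 2 genes of a pair are read by different probes, and how steeply each probe responds was not measured.

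The largest rise in the group with loess was outside the cycles proper. ACH1 (YBL015W), the mitochondrial enzyme that transfers CoA between acetate and acyl-CoAs, had levels of 822, 2117, 1875, 2382 and 1718 in chs2Δ. Its wild type levels were 264, 269, 276, 269 and 289. The wild type cultures differed little from each other, the lowest chs2Δ level was far above them, and ACH1 was 6.15-fold higher (log2 2.62, SE 0.19, adjusted p = 6.57e-06).

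PYC1 (YGL062W), a pyruvate carboxylase that makes oxaloacetate from pyruvate in the cytosol, had levels of 2466, 4392, 3373, 4923 and 2938 in chs2Δ. Its wild type levels were 851, 863, 830, 902 and 791. These do not overlap, and PYC1 was 4.14-fold higher (log2 2.05, SE 0.13, adjusted p = 2.64e-06). Its isoenzyme PYC2 had a log2 ratio of 0.52 (adjusted p = 1.16e-04) with loess and was called lower, at -0.18, with median centring, the only gene of the 36 called in opposite directions by both scalings. MAE1 (YKL029C), the mitochondrial malic enzyme that turns malate into pyruvate, was measured on 4 arrays, with levels of 3848, 3676, 4630 and 3696 in chs2Δ and 1700, 1675, 1679 and 1629 in the wild type on replicates 2 to 5. It was 2.36-fold higher without overlap (log2 1.24, SE 0.07, adjusted p = 5.73e-06).

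Among the NADP-dependent isocitrate dehydrogenases, the mitochondrial IDP1 (YDL066W) had levels of 4115, 5552, 4652, 6009 and 4466 in chs2Δ and 1972, 1819, 1867, 2250 and 2159 in the wild type. All chs2Δ cultures were above all wild type cultures (2.45-fold, log2 1.29, SE 0.09, adjusted p = 4.64e-06). IDP3, the peroxisomal enzyme, was 1.81-fold higher (adjusted p = 8.83e-05), with a wild type signal above background on only 2 arrays. IDP2, the cytosolic enzyme, had a log2 ratio of 0.19 (adjusted p = 0.0364), positive on 4 of 5 arrays. Its call was lost without background correction and without replicate 1, 2, 3 or 5 (adjusted p of 0.0522 to 0.128). ICL2, the mitochondrial 2-methylisocitrate lyase, was not called with loess (log2 0.07, 95% interval -0.05 to 0.19).

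The acetyl-CoA synthetases, which activate acetate to acetyl-CoA, were not called. ACS1, the isoform repressed by glucose, had log2 ratios of -0.06, 0.47, 0.11, 0.61 and 0.09 (mean 0.24, adjusted p = 0.0575), with a chs2Δ signal above background on 1 array and a wild type signal above background on 4. It was called higher without replicate 1 (log2 0.32, adjusted p = 0.0171) and under 6 further settings. ACS2, the isoform made on glucose, had a log2 ratio of -0.04 (95% interval -0.16 to 0.08) and -0.64, called lower, with median centring.

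Of the activators, CAT8 (YMR280C) rose. Its levels were 200.5, 195, 202, 185 and 180.4 in chs2Δ and 101, 107, 102, 101 and 101 in the wild type. The groups lie well apart, and with loess CAT8 was 1.88-fold higher (log2 0.91, SE 0.05, adjusted p = 1.72e-06) and with median centring 2.21-fold higher. SIP4, which binds the same promoter element as Cat8, was not above background on any array in either strain, so its ratio, plotted with the others, is not read. It is counted among the 9 genes not called with loess and among the 19 higher with median centring, and the pair SIP4 minus CAT8, although 1 of the 9 pairs with 1 sign on all arrays, has no reading.

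The scaling moved bright and dim genes in opposite directions. For all 27 genes with a mean level over 250 intensity units, median centring gave a log2 ratio lower than loess did, by 0.38 to 0.89 (shifts of -0.89 to -0.38). For all 9 genes with a mean level up to 250 it gave a higher one, by 0.10 to 1.01. Called in the same direction under both were 16 genes that rose (CIT1, CIT3, KGD1, MDH1, ICL1, MLS1, PCK1, FBP1, IDP1, IDP2, IDP3, MAE1, ACH1, PYC1, LAT1 and CAT8) and 5 that fell (KGD2, FUM1, MDH2, PDB1 and PDX1). Of these, MLS1, IDP2, KGD2 and PDX1 lost their calls under other settings, and MLS1 was above background on only 1 array in each strain. With median centring ACH1 was 3.95-fold, MDH1 2.58-fold, PYC1 2.46-fold and LAT1 2.04-fold higher. IDH1, LPD1, LSC2, CIT2 and PDA1 were called with loess alone. The limit of 250 was chosen after the values had been seen.

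**Figure D4:**
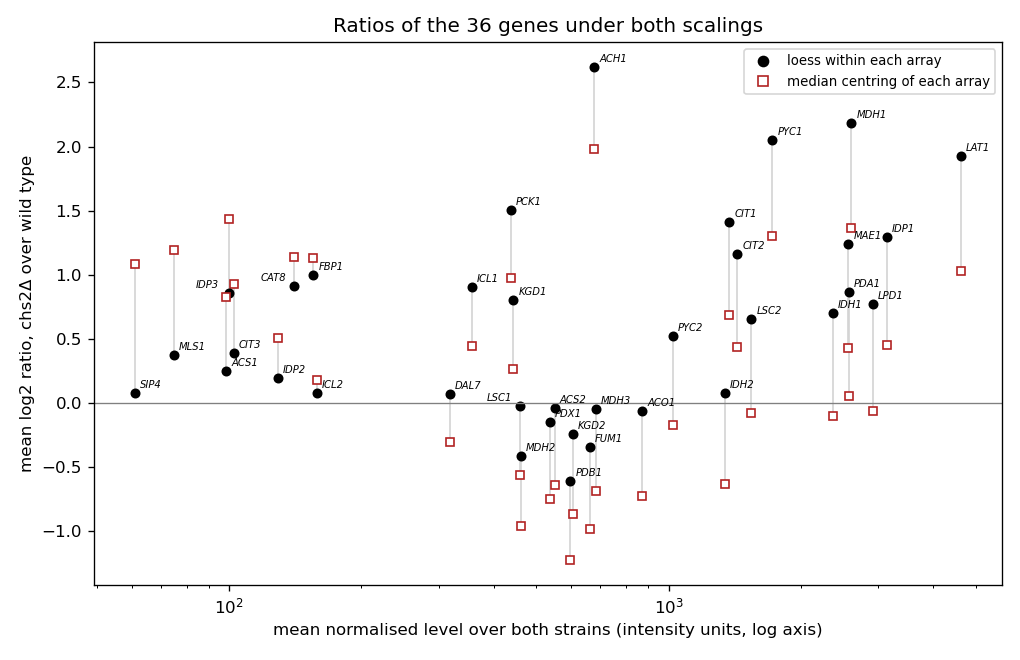
Mean log2 ratio of chs2Δ over wild type (vertical axis) of each of the 36 genes against its mean normalised level in both strains (horizontal axis, intensity units, log scale), with loess within each array (black circles) and with median centring of each array (open red squares), joined by a grey line. Squares lie above circles for the 9 genes up to 250 intensity units and below them for the 27 genes above, and ACH1, MDH1, PYC1 and LAT1 stay above 1 under both.

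Enzymes and regulators next to these pathways were counted from 6 lists of 60 genes. With loess, 35 were higher, 14 lower and 11 not called, so that their higher share also lay above the 35.7% of all genes. With median centring 30 of the 60 were higher and 19 lower, and 41.5% of all genes were higher. The counts per list were taken with loess alone. Of 9 related enzymes, 8 were higher (88.9%) and 1 was lower. SDH1, the flavoprotein subunit of succinate dehydrogenase, was 2.35-fold higher (log2 1.23, SE 0.11, adjusted p = 2.35e-05). The other subunits SDH2, SDH3 and SDH4 had log2 ratios of 0.37, 0.30 and 0.20, of which SDH3 and SDH4 were below 0 with median centring (-0.09 and -0.08). The call of SDH4 was also lost with an offset of 0, with the slide as the replicate and without replicate 3 or 4 (adjusted p of 0.0520 to 0.105).

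Of 16 carriers and acetyl shuttle genes, 8 were higher, 4 lower and 4 not called, so 75% were called, against 71.6% of all genes. MPC3, the subunit of the mitochondrial pyruvate carrier used in respiring cells, was 2.79-fold higher (log2 1.48, SE 0.17, adjusted p = 7.80e-05). YHM2, a carrier of citrate and 2-oxoglutarate, was lowest, at 0.528 times its wild type level (adjusted p = 1.30e-05). Of 8 genes for the control and lipoylation of 2-oxoacid dehydrogenases, 4 were higher, 3 lower and 1 was not called, so 37.5% were lower, against 36% of all genes. GCV3, the lipoylated H protein of glycine decarboxylase, was 4.92-fold higher on 4 arrays (adjusted p = 7.56e-06), and LIP5, which takes part in lipoate synthesis, was 0.579 times its wild type level (adjusted p = 5.31e-06). PKP1, a kinase that inactivates pyruvate dehydrogenase through its E1 alpha subunit and was named after its value had been seen, was 2.72-fold higher (log2 1.44, SE 0.09, adjusted p = 2.82e-06). PKP2 (log2 0.75) and PTC6 (0.71) of this list were also higher and PTC5 was not called (-0.08), all likewise named after their values had been seen.

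Of 15 carbon source regulators, 6 were higher (40%), 5 lower (33.3%) and 4 not called, shares near those of all genes. HAP4, the regulated activation subunit of the Hap2/3/4/5 complex, had log2 ratios of 1.05, 2.54, 2.43, 2.18 and 3.18, so that replicate 1 was the lowest, and was 4.84-fold higher (SE 0.25, adjusted p = 6.69e-05). ADR1, an activator of genes for ethanol and fatty acid use, named after its value had been seen, had log2 ratios of 0.74, 1.88, 1.43, 1.90 and 1.46, a 2.79-fold rise (adjusted p = 5.18e-05). SNF1, the kinase gene of glucose derepression, was 0.732 times its wild type level (adjusted p = 6.54e-05). Also called lower in this list were HAP3 (log2 -0.37), SIP1 (-0.20), ERT1 (-0.17) and RDS2 (-0.16). Also called higher were MIG1 (0.80), SIP2 (0.75), HAP5 (0.44) and REG1 (0.24). These were named after their values had been seen. Among the retrograde regulators, which adjust CIT2 and other genes to mitochondrial state, RTG1 (log2 0.55, adjusted p = 1.29e-04), RTG2 (0.68, adjusted p = 8.49e-06) and RTG3 (0.21, adjusted p = 0.0354) were higher and MKS1 was not called (0.04). The call of RTG3 was lost with an offset of 0, with the slide as the replicate and without replicate 2, 4 or 5 (adjusted p of 0.0548 to 0.109). With median centring only RTG1 of these kept its call as higher (0.96), RTG2 and RTG3 were not called, and MKS1 was lower (-0.29). Of 8 genes of the GID ubiquitin ligase, which marks Fbp1, Pck1 and Mdh2 for degradation when glucose returns, 6 were higher, 1 lower and 1 not called. That is 75% higher and 12.5% lower, against 35.7% and 36% of all genes. GID7 was 2.90-fold higher (adjusted p = 3.60e-06) and VID24, the substrate receptor of the ligase, was 0.846 times its wild type level (adjusted p = 0.00468).

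The ratios of the genes correlated between arrays, but their size differed. Log2 ratios of the 36 genes, without MAE1 that replicate 1 did not measure, had Pearson r of 0.866 to 0.971 between arrays. This is a description across genes, which are not independent. Replicate 1, alone on its slide, had the smallest median ratio, 0.39, against 0.57 to 0.66 on the other 4 arrays. It was the lowest array for 13 of the 21 genes that were higher and measured on 5 arrays, or 61.9%, against 42.8% of all such genes. Without replicate 1 the log2 ratio was 2.87 for ACH1, 2.35 for MDH1, 2.18 for PYC1, 2.10 for LAT1 and 1.61 for CIT1. Without it KGD2, IDP2 and PDX1 lost their calls and ACS1 gained one. CIT2 had the largest dye effect, 0.37 on the log2 scale in size, and the smallest adjusted p for a dye effect in the group was 0.134. At an unadjusted p below 0.05, 12 of the 36 genes had a dye effect, and over all genes 0 were called for dye with limma, 1291 at an unadjusted p below 0.05.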

How the data were processed

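The 5 arrays paired chs2Δ and wild type cRNA, with chs2Δ in Cy5 on replicates 1, 3 and 5 and in Cy3 on 2 and 4, on 3 slides. The authors deposited ImaGene 6.0.0 scanner intensities without background correction or normalization, and log2 ratios made with limma, not turned for dye, which correlated with those computed here before turning (r of 0.9991 or more). Their rows were named through the spot order.

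The software was limma 3.58.1 under R 4.3.3 (statmod 1.5.0, jsonlite 2.0.0). Spots flagged poor (111 to 244 per array) were left out, background was corrected with normexp (offset 50), loess (span 0.3) was fitted within arrays, the 1 or 2 spots of a gene were averaged, and signs were set so that chs2Δ is the numerator. Fold changes are 2 to the power of the mean log2 ratio, which the offset shrinks for dim genes. lmFit and eBayes were fitted over 5 arrays, and p-values adjusted by Benjamini-Hochberg over 6246 genes with a usable spot. Levels are channel values after loess and Aquantile scaling. Overlap of the strains was read for single named genes and was not counted over all genes. Above background meant over the background median by 2 background SD. The methods describe 5 independent cultures per strain, and the number of arrays limits the precision. The script was tested on simulated data.

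The 36 genes and all lists were chosen with earlier results of these data known. Named were all 36, the extreme called genes of each list or a whole list of up to 5, CHS2, MYO1 and the mating type markers. A gene named by this rule is not reported here. ADR1, PKP1, PKP2, PTC5, PTC6, SDH2, SDH3, SDH4 and the subunit pairs were added after their values were seen. So were the remaining called carbon source regulators other than HAP4 and SNF1. LIP3 was matched through its synonym AIM22. Of all genes, 5747 were matched to the reference by name. Alternatives covered background, scaling, dye, slide, flags, dim genes, spots, thresholds and each array left out. Promoter motifs and sequences were not analysed here.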

Additional observations from a re-analysis of the deposited data

Results flagged for a closer look

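Among the 36 genes, the 60 neighbouring genes, CHS2 and MYO1, 98 in all, single arrays far from the rest of their group were sought with Dixon's test at its 95% critical value, by which chance alone marks about 1 in 20 genes. It marked 3 of the 36 genes. MDH2 had a log2 ratio of -0.826 on replicate 1, against -0.39 to -0.219 on the other arrays, and was 0.751 times its wild type level over all. ICL2 had 0.207 on replicate 5, against 0.00178 to 0.0608. MAE1 had 1.46 on replicate 4, against 1.13 to 1.18 on the other 3 arrays that measured it.

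Of the neighbouring genes, the test marked SFC1, the succinate-fumarate carrier, at -0.363 on replicate 4 (others 0.127 to 0.296), and SNF1 at -0.548 on replicate 4 (-0.438 to -0.395). It marked RTG1 at 0.281 on replicate 5 (0.574 to 0.67) and PKP1 at 1.02 on replicate 1 (1.48 to 1.63). UBC8, the ubiquitin-conjugating enzyme of the GID system, was -0.825 on replicate 3, against 0.54 to 1.0 on the others, and was not called (adjusted p = 0.105).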

How the results depend on the processing

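Median centring in place of loess changed most. It turned the log2 ratios of IDH1 (-0.10), IDH2 (-0.64), LPD1 (-0.062), LSC2 (-0.080), DAL7 (-0.31), PYC2 (-0.18), MKS1 (-0.29), SDH3 (-0.094) and SDH4 (-0.081), and the differences CIT3 minus CIT1 (0.24), IDP2 minus IDP1 (0.055) and IDP3 minus IDP1 (0.98). IDP3 minus IDP1 also turned with an offset of 0 (0.63) and with plain subtraction (0.17), and DAL7 minus MLS1 turned with all flagged spots left out (0.057). The number of the 36 genes called lower was 12 with median centring and 3 without background correction, at an adjusted p of at most 0.01 and at an unadjusted p of at most 0.01. It was 3 to 5 when 1 array was left out, 3 without replicate 1, 3 or 5. The median difference between TCA and glyoxylate or gluconeogenic genes, -0.11, was -0.61 with median centring, 0.0399 without background correction, -0.30 with an offset of 0, -0.26 with plain subtraction, -0.28 without dim genes and 0.19 with IDP1 and IDP2 counted in.

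The number of the 36 genes called higher lay between 19 and 24 under every setting. Outside median centring, the calls lost were those of KGD2, IDP2, PDX1 and MLS1 among the 36 genes and those of RTG3 and SDH4 among the named neighbouring genes. Calls under other settings are not given here for PKP2, PTC5, PTC6 and the carbon source regulators other than HAP4, SNF1 and ADR1. Every ratio sets 1 chs2Δ culture against 1 wild type culture of the same array. With the slide as a random block, 23 of the 36 genes were higher and 5 lower. A limit is the dim chs2Δ channel, in which MLS1, ACS1 and SIP4 were above background on 1 array or none.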
